A study of Homo sapiens with 2 samples.

Results

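LSD1 peaks were examined at 10 genes of the Notch pathway: the receptor genes NOTCH1, NOTCH2, NOTCH3 and NOTCH4, the ligand genes JAG1, JAG2 and DLL1, the nuclear effector gene RBPJ, and the target genes HES1 and HEY1. A peak was assigned to a gene when any base of it lay in the GENCODE gene span on hg19 or within 20 kb of that span. By this rule 27 of the 20110 deposited peaks belonged to 9 of the 10 genes, out of 20162 protein-coding genes in all. The data came from 1 LSD1 chromatin immunoprecipitation (ChIP-seq) library and 1 input DNA library, each the only replicate, from PC-3M-luc cells at passages 17 to 20. PC-3M-luc cells descend from PC-3, a human prostate carcinoma line that grows without androgen, by way of its metastatic variant PC-3M, and carry luciferase. Both libraries have the genotype label Control. LSD1 (KDM1A) is a demethylase of histone H3 lysine 4 that works within corepressor complexes.

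The deposited list was taken as LSD1 called against input, which no label states outright, and how deeply either library was sequenced is unknown. Since each arm was 1 library, no value has a replicate check, and no test between conditions was possible. Scores are those the authors deposited, from 50 to 3226.07 with a median of 205.87. They were used only to describe and rank peaks, and 206 peaks share the value 3100. Where no peak is reported, nothing passed the authors' threshold, and LSD1 may still have been present. A peak list holds no expression values, so neither the transcription of these genes nor the cell type could be checked from it.

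Notch receptors are membrane proteins that are cleaved when a ligand of the Jagged or Delta family on a neighbouring cell binds them. The released intracellular domain enters the nucleus and joins RBPJ, a DNA-binding protein that otherwise recruits corepressors, and the complex activates genes such as those of the HES and HEY repressor families. LSD1 has been described in RBPJ-bound complexes, and in the prostate the pathway is known for its part in the control of epithelial progenitor cells.

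The following start-site sequences are printed to show which of these genes carry the letters of the RBPJ core. Each runs 5′ to 3′ on the strand of the gene, from 250 bases before the canonical transcription start site (TSS) through the 50 bases that begin at it, in the GRCh37 (hg19) reference. Capitals mark the RBPJ core TGGGAA, or its relaxed form TGNGAA, on either strand. HES1 is shown because it carries a pair of cores, NOTCH1 and JAG1 as high-scoring promoters without a core, and NOTCH3 and NOTCH4 as the receptor promoters without a peak.
HES1 (chr3:193853687-193853986, plus strand): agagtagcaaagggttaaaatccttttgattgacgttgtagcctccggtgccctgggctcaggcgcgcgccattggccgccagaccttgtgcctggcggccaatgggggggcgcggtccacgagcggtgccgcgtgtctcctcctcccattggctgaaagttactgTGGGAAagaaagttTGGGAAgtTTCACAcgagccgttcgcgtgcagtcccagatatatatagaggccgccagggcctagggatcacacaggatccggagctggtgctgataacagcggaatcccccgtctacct
NOTCH1 (chr9:139440451-139440750, minus strand): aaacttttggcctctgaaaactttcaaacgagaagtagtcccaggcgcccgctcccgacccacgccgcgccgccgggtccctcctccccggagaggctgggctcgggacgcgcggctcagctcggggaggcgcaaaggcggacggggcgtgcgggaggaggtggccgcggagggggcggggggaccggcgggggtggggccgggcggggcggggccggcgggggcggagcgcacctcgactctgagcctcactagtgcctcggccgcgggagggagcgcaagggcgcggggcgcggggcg
JAG1 (chr20:10654598-10654897, minus strand): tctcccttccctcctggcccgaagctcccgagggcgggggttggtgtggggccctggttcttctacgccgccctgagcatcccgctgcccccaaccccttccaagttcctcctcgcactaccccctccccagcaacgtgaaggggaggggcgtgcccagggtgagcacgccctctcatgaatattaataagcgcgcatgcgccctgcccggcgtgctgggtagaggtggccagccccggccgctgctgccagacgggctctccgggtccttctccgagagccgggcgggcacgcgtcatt
NOTCH3 (chr19:15311757-15312056, minus strand): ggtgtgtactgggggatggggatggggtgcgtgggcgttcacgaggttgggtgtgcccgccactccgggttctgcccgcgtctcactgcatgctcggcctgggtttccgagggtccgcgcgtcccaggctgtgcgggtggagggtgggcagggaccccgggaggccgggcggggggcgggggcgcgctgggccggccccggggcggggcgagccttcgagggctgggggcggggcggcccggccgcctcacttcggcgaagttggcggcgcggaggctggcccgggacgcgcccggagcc
NOTCH4 (chr6:32191795-32192094, minus strand): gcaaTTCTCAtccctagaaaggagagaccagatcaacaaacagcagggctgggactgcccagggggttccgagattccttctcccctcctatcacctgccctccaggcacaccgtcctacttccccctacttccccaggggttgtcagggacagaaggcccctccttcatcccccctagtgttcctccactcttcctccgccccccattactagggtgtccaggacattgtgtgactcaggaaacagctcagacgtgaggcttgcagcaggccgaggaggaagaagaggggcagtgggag

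Strict RBPJ cores occurred in the start-site windows of HES1 and HEY1 and in none of the other 8 genes, while 22.2% of all protein-coding start-site windows held one. In HES1 the cores began at positions -84 and -70 from the TSS on the strand of the gene, and a relaxed core on the opposite strand began at -62. The cores at -84 and -62 face each other with 16 bases between them, the spacing of a paired RBPJ site. Such a pair of relaxed cores 15 to 19 bases apart was found in 0.104% of protein-coding windows. A pair of strict cores at that spacing was found in 0 of the 10 genes and in 0.0198% of protein-coding windows. In HEY1 strict cores began at -66 and -49. The relaxed form was chosen after the values were seen. Relaxed cores, which include the strict ones, occurred in 3 of the 10 windows, against 40.7% of protein-coding windows. Besides HES1 and HEY1 this was NOTCH4, with a relaxed core at -246, and the windows of NOTCH1, NOTCH2, NOTCH3, JAG1, JAG2, DLL1 and RBPJ held neither form.

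Of the 10 genes, 9 had a peak by the 20 kb rule, against 70.8% of all protein-coding genes. This share differed with gene length. With all protein-coding genes in 4 equal groups by length, the share was 57.6% in the shortest group, where HES1 and HEY1 belong, and 74.1% in the next, where DLL1 belongs. It was 77.1% in the group above, which holds NOTCH1, NOTCH3, NOTCH4, JAG1 and JAG2, and 74.5% in the longest, which holds NOTCH2 and RBPJ. A peak within 1 kb of the canonical TSS was present at 7 of the 10 genes, against 55.0% of protein-coding genes. In each of the 7 a peak also covered the TSS base itself, as at 53.6% of all protein-coding genes. Promoters were called CpG-rich where the 1000 bp around the TSS held over 55% GC and a ratio of observed to expected CpG over 0.65. Of the 8 CpG-rich promoters among the 10 genes, 6 had a peak, a share close to the 76.9% of all CpG-rich promoters.

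**Figure D1:**
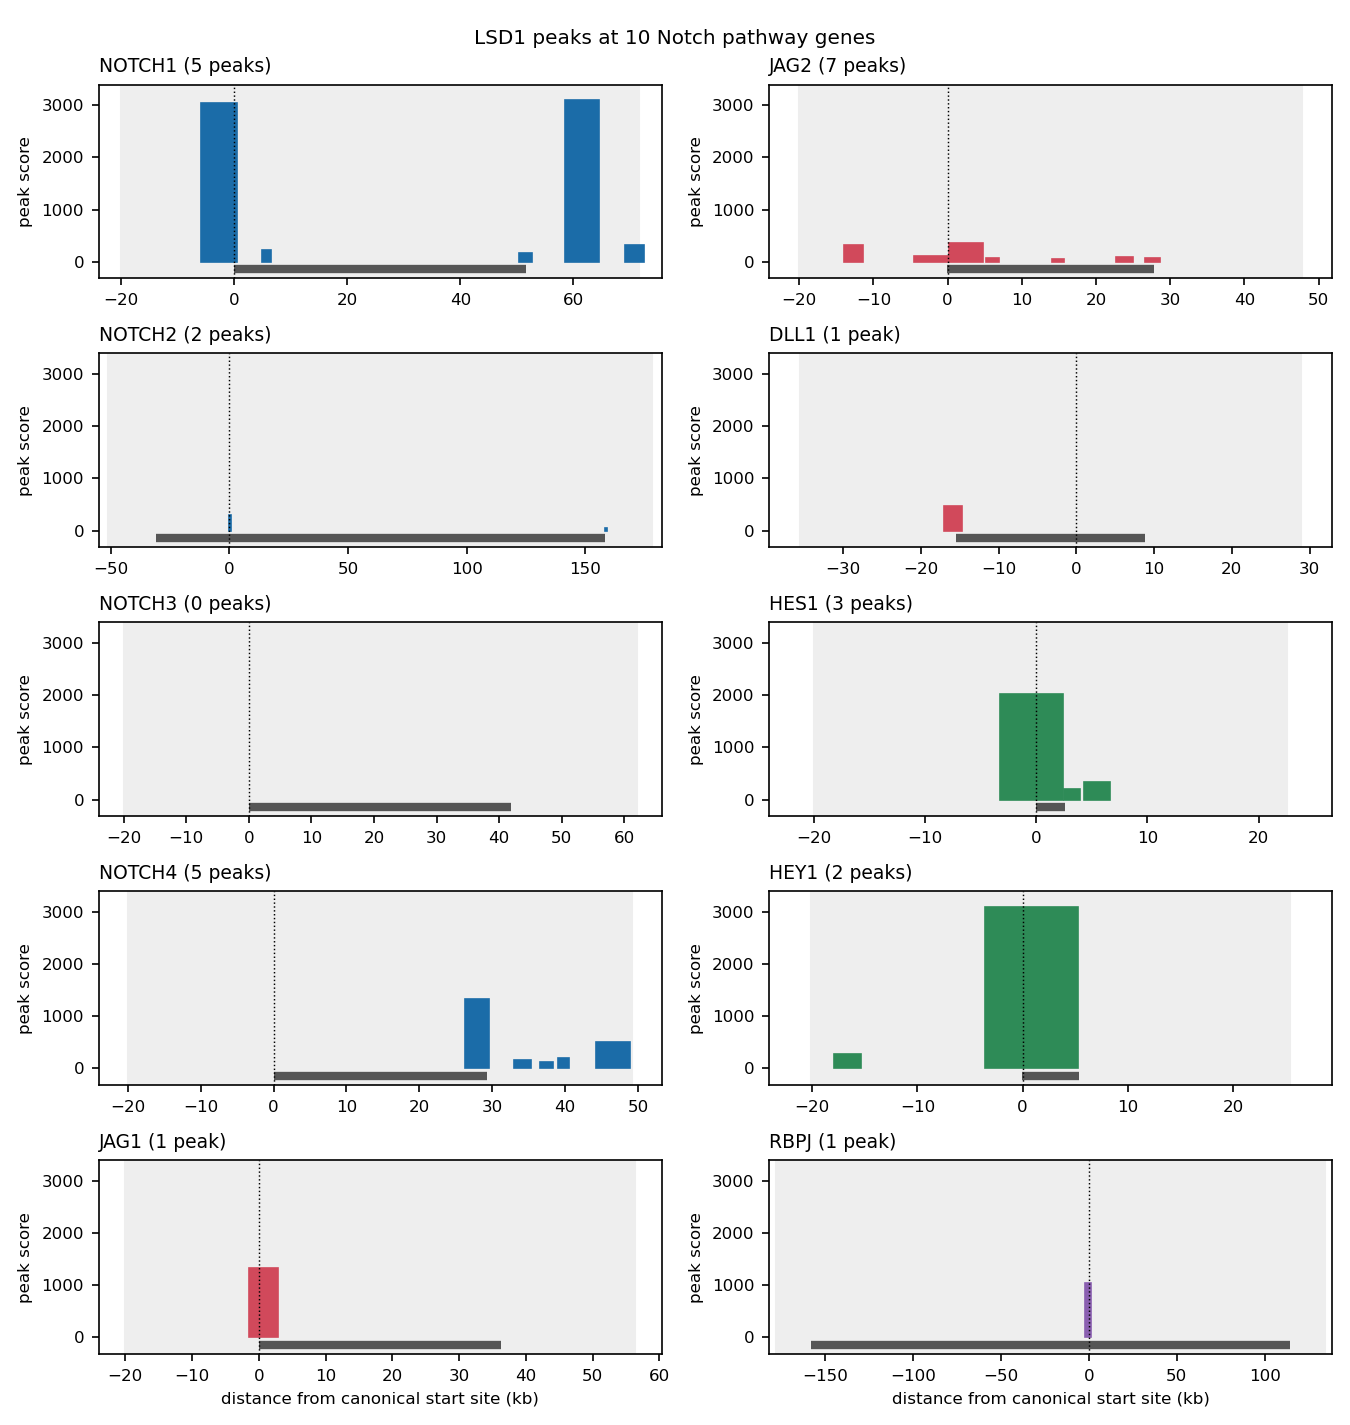
LSD1 peaks at each of the 10 genes, with the distance from the canonical start site in kb on the horizontal axis, transcription running to the right, and the authors' peak score on the vertical axis. Bars span the peaks, the dark line is the gene span, the grey field is that span with 20 kb on both sides, and the dotted line is the canonical start site. NOTCH1, JAG1, HES1, HEY1 and RBPJ had their canonical start site under a peak with a score over 1000, and the NOTCH3 panel is empty.

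Among the receptors, NOTCH1 (chromosome 9, 139388885 to 139440500, minus strand) had the highest promoter score. NOTCH1 encodes a receptor that is mutated in T-cell leukaemia. A peak of 6442 bp (139439950 to 139446391) with a score of 3047.77 covered its canonical TSS and exon 1. It reached from -5891 to 550 bp of the TSS, so most of it lay upstream of the gene. The same peak covered start sites of MIR4674, a microRNA gene, and of NALT1, a long non-coding RNA gene beside NOTCH1. Of all peaks, 98.9% ranked below this score, and among protein-coding genes with a promoter peak NOTCH1 stood at percentile 97.9.

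The other 4 peaks of NOTCH1 were not at its start. One of 1633 bp in an intron, from 4913 to 6545 bp downstream of the TSS, scored 214.85. Another of 2306 bp over exon 34 at the 3′ end scored 158.97. Beyond the 3′ end, a peak of 6092 bp (139375902 to 139381993) had the repeated score of 3100, and its midpoint lay 736 bp from a start site of SEC16A, whose product organises endoplasmic reticulum exit sites. The last, 17569 bp beyond the gene with a score of 314.76, also lay within 1 kb of a SEC16A start site. The highest score assigned to NOTCH1 by the rule therefore lay at a start site of its neighbour.

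NOTCH2 (chromosome 1, 120454176 to 120643366, minus strand), a receptor with roles in B-cell and kidney development, had a narrow peak at its start. It was 635 bp wide (120611730 to 120612364), scored 292.11 and reached from -88 to 546 bp of the canonical TSS. Its width stood at percentile 1.56 of all peaks. NOTCH2 has partial copies, the NOTCH2NL genes, elsewhere on chromosome 1. Of the 32-base words within 1 kb of its TSS, 20.4% occurred once in the reference, and 30.5% of those under the peak did, while around the TSS of NOTCH1, JAG1, JAG2, DLL1, HES1, HEY1 and RBPJ all words did. How the authors treated reads that map to several places was not given, so the width and score of the NOTCH2 peak are uncertain. A second peak, 238 bp beyond the 3′ end, was 856 bp wide and scored 56.57, near the lowest score in the list.

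NOTCH3 (chromosome 19, 15269849 to 15311806, minus strand) was the gene without a peak. NOTCH3 encodes the receptor best known from vascular smooth muscle. Its promoter was CpG-rich, with 70.4% GC and a CpG ratio of 0.702, and 92.6% of the 32-base words within 1 kb of its TSS occurred once in the reference. The nearest peak upstream was 21622 bp from the gene, just outside the rule, at 15333428 to 15334094 with a score of 56.71. Downstream the nearest lay 32581 bp away, at 15235271 to 15237268 near a start site of ILVBL, with a score of 384.04. With a flank of 50 kb, 8 peaks would have been assigned to NOTCH3. At the same limit, the assigned peaks furthest from their gene were those at 17569 bp from NOTCH1 and 15243 bp from HEY1. The closest unassigned ones after that of NOTCH3 lay 24969 bp from NOTCH4 and 25454 bp from HEY1.

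NOTCH4 (chromosome 6, 32162620 to 32191844, minus strand), a receptor expressed mainly in endothelium, had 5 peaks and none at its start. At least 5 peaks by the rule were assigned to 3 of the 10 genes, NOTCH1, NOTCH4 and JAG2, against 13.4% of protein-coding genes. All 5 peaks of NOTCH4 lay at or beyond its 3′ end, from 26265 to 48911 bp downstream of the canonical TSS, in the gene-dense class III region of the major histocompatibility complex. The highest in score, 1329.89, was 3232 bp wide (32162348 to 32165579). It covered canonical exons 27 to 30 and an alternative NOTCH4 start site, and its midpoint lay 663 bp from a start site of GPSM3, a modulator of G protein signalling. The others lay within 1 kb of start sites of PBX2, a homeobox gene (167.4 and 120.59), of AGER, the receptor for advanced glycation end products (200.3), and of AGPAT1 and RNF5 (500.48). The NOTCH4 promoter had a CpG ratio of 0.14 and was CpG-poor, a class in which 27.1% of protein-coding promoters had a peak.

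**Figure D2:**
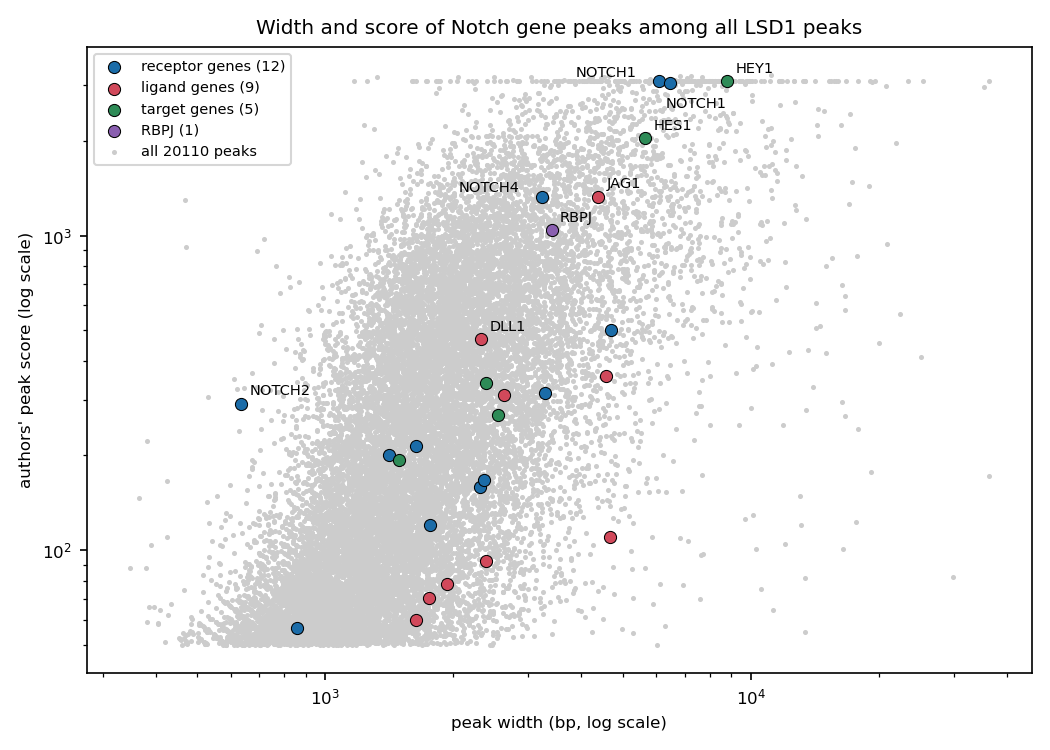
Width and authors' score, both on log axes, of the 27 peaks assigned to Notch genes (coloured by role of the gene) and of all 20110 peaks (grey). The peaks of NOTCH1, HES1, HEY1, JAG1 and RBPJ over their start sites sit at the upper right, with widths of 3404 to 8804 bp, and the NOTCH2 start-site peak stands apart at 635 bp.

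The 3 ligand genes each showed a different pattern. JAG1 (chromosome 20, 10618332 to 10654647, minus strand) encodes Jagged1, a ligand studied in metastatic prostate cancer. It had 1 peak, of 4372 bp (10651780 to 10656151), from -1504 to 2867 bp of the canonical TSS, over exons 1 and 2. Its score of 1327.64 was above 93.5% of all peaks. The next peaks on either side of JAG1 lay 201771 bp and 1216509 bp away.

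JAG2 (chromosome 14, 105607319 to 105635161, minus strand), the gene of the second Jagged ligand, had 7 peaks, the most of the 10 genes when peaks of any score counted. At least 7 were assigned to 5.11% of protein-coding genes. With a score of at least 100, JAG2 kept 3 peaks, while NOTCH1 and NOTCH4 kept 5 each. At or above the median score JAG2 had 2, NOTCH4 had 2 and NOTCH1 had 4. Those overlapping the gene covered 41.9% of its span. At least 40%, a limit just below that value, was covered in 1.03% of protein-coding genes in its length group. JAG2, at 27.8 kb, is near the short end of that group, which runs from 27.2 to 71.3 kb. Scores of the JAG2 peaks ran from 59.78 to 356.87, and 5 of the 7 were below the median of the list. The canonical TSS lay under a peak of 4665 bp that scored 109.94, from -4574 to 90 bp. This peak also lay within 1 kb of a start site of NUDT14, a sugar-nucleotide hydrolase gene. The highest score was that of a peak of 4571 bp just inside the gene, from 226 to 4796 bp, separated from the peak over the TSS by 135 bp. These adjacent peaks were counted separately, as called. Further peaks along the gene scored 70.53 and 59.78 in introns, 92.68 over exons 23 and 24, and 78.35 over exon 26. The last, 11296 bp upstream of JAG2 with a score of 310.47, had its midpoint 114 bp from another start site of NUDT14.

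DLL1 (chromosome 6, 170591294 to 170615653, minus strand) encodes a Delta ligand. Its 1 peak, of 2324 bp (170614804 to 170617127) with a score of 469.3, lay from -16961 to -14638 bp of the canonical TSS at 170600166. It covered an alternative DLL1 start site, and its midpoint was 119 bp from a start site of the neighbouring gene FAM120B. No peak lay within 1 kb of the canonical DLL1 TSS, although that promoter was CpG-rich with 69.8% GC and a CpG ratio of 0.889. A peak by the 20 kb rule without a peak at the canonical TSS was present at DLL1 and NOTCH4, and at 15.8% of protein-coding genes.

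RBPJ (chromosome 4, 26165077 to 26436753, plus strand) is the longest of the 10 genes and has 43 annotated start sites. It had 1 peak, of 3404 bp (26320268 to 26323671), which covered the canonical TSS and 20 of those start sites. The peak reached from -2368 to 1035 bp of the TSS, scored 1040.32 and covered 1.25% of the gene span. The nearest other peak lay 65125 bp from the gene.

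Of the genes described in detail, HES1 and HEY1 had the largest shares of their span covered by peaks. Both are short, at 2585 and 5487 bp, and each is shorter than its start-site peak, of 5651 and 8804 bp. HES1 (chromosome 3, 193853937 to 193856521, plus strand) encodes a basic helix-loop-helix repressor and is a classic direct target of Notch. Peaks covered 97.3% of its span. The main peak, of 5651 bp (193850672 to 193856322), scored 2034.78, reached from -3265 to 2385 bp of the TSS and took in all 4 exons at least in part. A second peak of 1494 bp (193.03) followed after a gap of 71 bp, and the last, of 2382 bp (339.5), after a further 332 bp. The HES1 promoter fell outside the CpG-rich class, with 46.8% GC and a CpG ratio of 0.622 in 1000 bp. The narrower start-site window printed above held 59% GC and a CpG ratio of 0.809. The paired RBPJ cores printed above lay inside the main peak, which held 9 strict cores in all. Over all peaks of the list, strict cores occurred 0.999 times per kb.

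HEY1 (chromosome 8, 80674606 to 80680092, minus strand), the gene of a related repressor that is also induced by Notch, had 97.5% of its span covered. At least 90% of the span was covered at HES1 and HEY1, against 2.82% of all protein-coding genes. In the shortest length group, which runs up to 9.5 kb, the share was 10.5%. How far the short length of HES1 and HEY1 accounts for their coverage was not tested further. A peak of 8804 bp (80674745 to 80683548) with the repeated score of 3100 covered all 5 canonical exons and all 12 annotated HEY1 start sites, from -3546 to 5257 bp of the canonical TSS. It was the widest of the 27 peaks and held 10 strict RBPJ cores. The narrower start-site peaks of NOTCH1 (6442 bp) and RBPJ (3404 bp) held 8 and 6, and all peaks held 0.999 per kb. A second HEY1 peak, 15243 bp upstream, was 2551 bp wide and scored 269.88. Both HEY1 peaks covered start sites of LINC01607, a long non-coding RNA gene.

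As a set, the 27 peaks had a median width of 2385 bp and a median score of 292.11, against 1649 bp and 205.87 for all peaks. They were very uneven, with scores from 56.57 to 3100. Of the 27, 17 overlapped a gene span, 8 lay downstream and 2 upstream. A start site of another protein-coding gene lay within 1 kb of 10 of them, and 9 of these were not within 1 kb of the canonical TSS of the Notch gene. The median GC content of the 300 bp at their midpoints was 61.7%, against 60% for all peaks, and the median CpG ratio was 0.408 against 0.532.

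Motif matches at the peak midpoints were set beside those of all peaks, counting both strands in 300 bp. The strict RBPJ core TGGGAA occurred in 5 of the 27 peaks (18.5%, exact 95% binomial interval 6.3 to 38.1), against 24.2% of all peaks. The longer core GTGGGAA, which contains it, occurred in 2 peaks (7.41%, interval 0.91 to 24.3), against 6.69%. The paired strict cores occurred in 0 of the 27 peaks and in 0.0298% of all peaks. The relaxed core TGNGAA occurred in 9 of the 27 peaks (33.3%, interval 16.5 to 54), against 45.1% of all peaks, and its paired form in 0 of the 27 and in 0.174% of all peaks. For the N-box CACNAG and the class C site CACGNG, both read by HES-type repressors, the shares were 48.1% and 37% in the Notch gene peaks, against 41.3% and 32.1% in all peaks. The SP/KLF element GGGCGG stood at 44.4% against 41.3%, the ETS core CCGGAA at 7.41% against 14.9%, and the AP-1 element TGANTCA at 3.7% against 8.87%. In 300 bp the share in all peaks lay inside the interval for the 27 for every motif tested, so no difference was detectable at that window. The strict core depended on the window. In 200 bp it occurred in 0 of the 27 peaks (interval up to 12.8%), against 16.5% of all peaks, which lies outside the interval. Several of the 27 share a gene, so they are not independent, and the intervals cover counting error only. No share outside an interval is read as a trait of these genes. Every motif was compared in 200, 300 and 500 bp and over whole peaks, with no correction for the number of comparisons. Over whole peaks, which had a larger median width at the Notch genes, the longer core occurred in 59.3% of the 27 (interval 38.8 to 77.6), against 35.4% of all peaks. The SP/KLF element occurred in 92.6% of the 27 (interval 75.7 to 99.1), against 71.3% of all whole peaks. The paired relaxed cores occurred in 1 of the 27 whole peaks (3.7%, interval 0.0937 to 19), the main peak of HES1, against 1.45% of all whole peaks. The midpoint of that HES1 peak lay at -440 bp from the TSS, so the 300 bp there did not reach the pair. Per length, the strict core occurred 1.07 times per kb in Notch gene peaks and 0.999 times per kb in all peaks. For the longer core these rates were 0.317 and 0.24 per kb, and for the SP/KLF element 2.6 and 1.88 per kb.

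**Figure D3:**
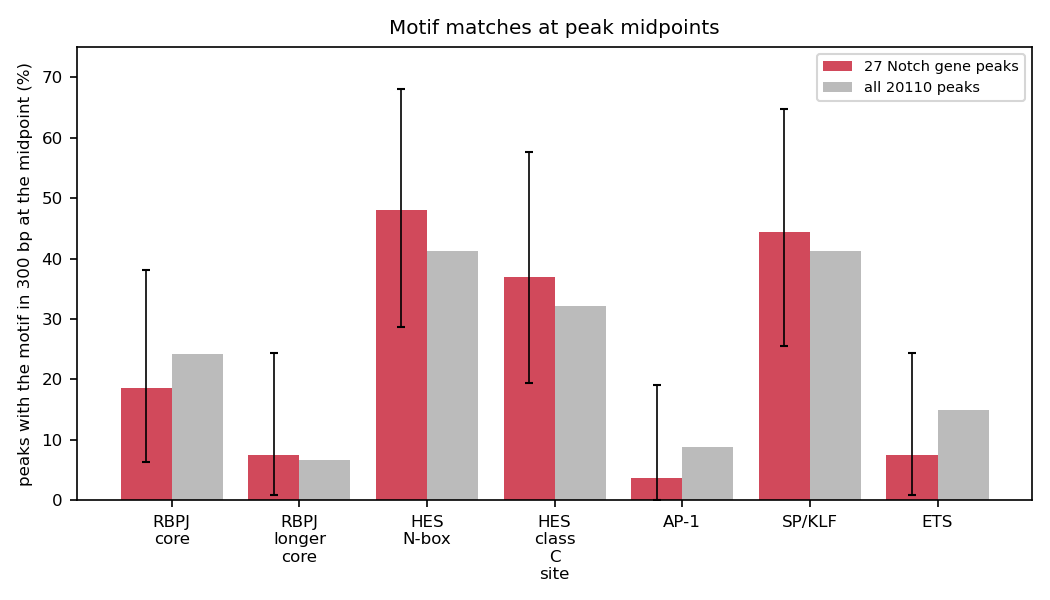
Share of peaks with each motif in the 300 bp at the midpoint, for the 27 Notch gene peaks (red, with exact 95% binomial intervals) and all 20110 peaks (grey). Each grey bar ends within the interval of the red bar beside it, for the RBPJ core at 24.2% against an interval of 6.3 to 38.1.

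The rest of the pathway was read from a list of 53 genes that includes the 10. Of the 43 others, 34 (79.1%) had a peak within 1 kb of the canonical TSS, against 55.0% of all protein-coding genes. CpG-rich promoters made up 36 of the 43, and 29 of these had a peak, close to the share of CpG-rich promoters in general. Of the rest of the 43, which were CpG-poor, 5 had a peak, against 27.1% of all CpG-poor promoters. The median of the highest promoter scores was 1327.64 over the 7 Notch genes with such a peak, 448.185 over the 34 others and 464.665 over all protein-coding genes with one. The 7 scores ran from 292.11 to 3100, and the genes were chosen with earlier results of these data known.

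By role, all 9 genes of receptor cleavage had a promoter peak, led by NCSTN (1058.49), a subunit of gamma-secretase, and ADAM17 (1031.93), a membrane metalloprotease. Of the 11 genes of the nuclear complex 10 had one, led by MAML3, a coactivator of the mastermind family (3016.76), and CTBP1, a corepressor (1068.03). Glycosylation genes had 4 of 5, led by POGLUT1 (1122.28) and LFNG (562.98), whose enzymes add sugars to the receptors. Genes of endocytosis and turnover had 7 of 11, led by MIB2, a ubiquitin ligase for ligands (1389.93), and FBXW7, which marks the receptor intracellular domain for degradation (872.78). Of the 8 target genes 6 had one, with HEY1 and HES1 highest. Of the 5 ligand genes 3 had one, led by JAG1 and JAG2, and of the 4 receptor genes 2 had one, NOTCH1 and NOTCH2. Beside these counts, 55.0% of all protein-coding genes and 76.9% of those with a CpG-rich promoter had a promoter peak. CpG-rich promoters made up 8 of the 9 cleavage genes, 8 of the 11 nuclear complex genes and 10 of the 11 endocytosis and turnover genes. The promoter peak of NCSTN also lay within 1 kb of a start site of COPA.

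Besides NOTCH3, the genes of the list without any peak by the 20 kb rule were MFNG, a glycosyltransferase gene, the Deltex genes DTX1, DTX2 and DTX4, and HEYL, a HEY family gene. Of the 32-base words around the DTX2 TSS, 2.74% occurred once in the reference, and how reads from such sequence were treated was not given. At MFNG, DTX1, DTX4 and HEYL the value was at least 99.8%. The promoters of DTX1, DTX2, DTX4 and HEYL were CpG-rich and that of MFNG was not.

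**Figure D4:**
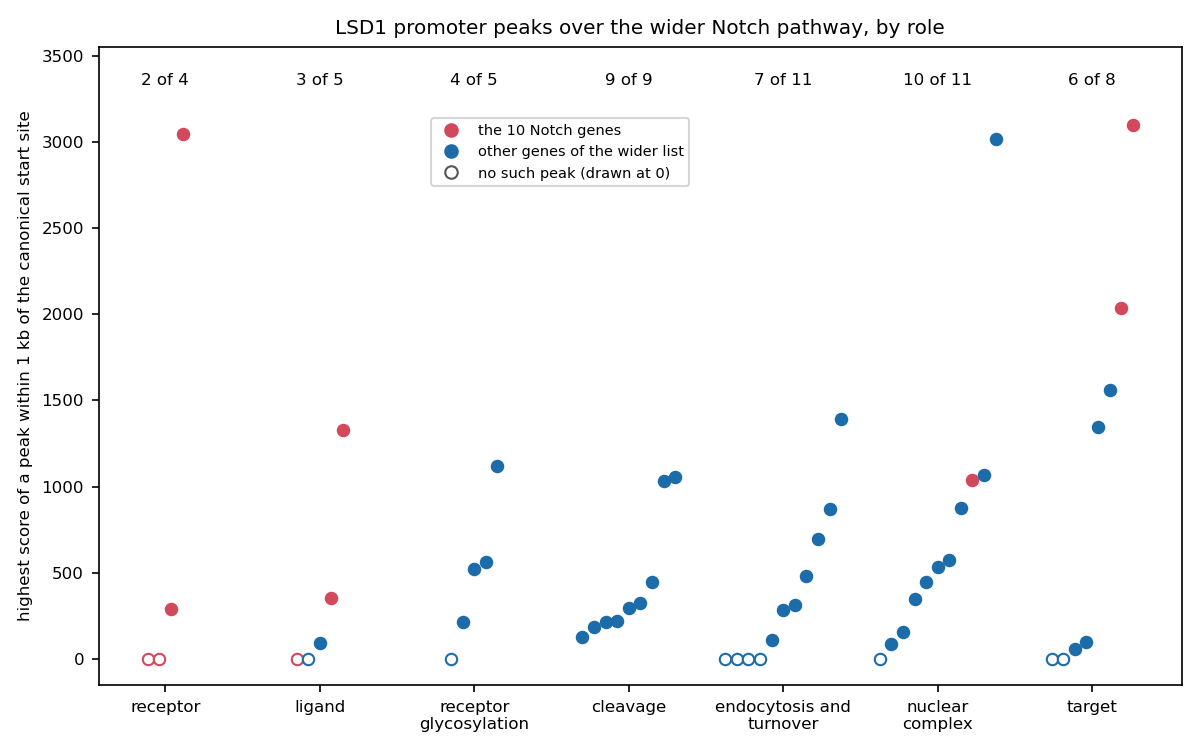
Highest score of a peak within 1 kb of the canonical start site for each of 53 Notch pathway genes, grouped by role on the horizontal axis. Filled points are genes with such a peak, open points at 0 have none, and red marks the 10 genes described in detail. The counts above each role show 9 of 9 for cleavage and 2 of 4 for the receptors. Of all protein-coding genes, 55.0% had such a peak.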

How the data were processed

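The series holds 1 library of LSD1 ChIP-seq and 1 of input from PC-3M-luc cells. Alignment was to hg19 with bowtie 2, per the labels' protocols. MACS 1.41 is named in the submitters' processing notes, as is mm10 beside hg19, and mm10 was not used because the cells are human. The deposited list gives each peak's position and the authors' score, read from its values as the caller's scaled negative log10 p, which no label states. Settings, duplicate handling and read numbers were not stated in the sources used here. Against GRCh37, 0 of the peaks extended past the end of their chromosome, and 0 pairs of peaks overlapped. Genes came from GENCODE 44 mapped to GRCh37. For 281 protein-coding genes without a canonical transcript there, the end of the gene span stood in, none of them in the Notch lists. Coordinates are 1-based.

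Peaks were assigned by any overlap. A percentile is the share of peaks with a lower score, with ties split evenly. Named genes were all 10 members, up to 2 genes per role of the wider list with the highest promoter score, list genes without a peak, and neighbours with a start site within 1 kb of an assigned peak. The members and lists were chosen with earlier results of these data known. The code was tested on simulated data with planted peaks and motifs. The tools were samtools 1.23.1, Python 3.11.15, pandas 2.3.3, numpy 2.4.6, matplotlib 3.10.9, numba 0.67.0 and pysam 0.24.0. Alternatives were other flanks, score limits, overlap criteria, gene models and sequence windows.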

Additional observations from a re-analysis of the deposited data

How the results depend on the processing

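No paired analysis was possible because the ChIP and the input are 1 library each and none could be left out. The number of Notch genes with a peak stayed at 9 under all alternatives except the 50 kb flank, where NOTCH3 made it 10. The number of assigned peaks fell to 17 with the gene span alone and to 16 at or above the median score, and was 42 with the 50 kb flank. Merging peaks under 500 bp apart, an alternative chosen after seeing the data, gave 23. Genes with a promoter peak numbered from 5 to 9, except for 2 when at least 50% of the peak had to lie within 1 kb of the TSS, a criterion that wide peaks cannot meet. With the peak midpoint within 1 kb, NOTCH1 and JAG2 had none. With any annotated TSS, NOTCH4 and DLL1 joined. HEY1 left when the widest 1% of peaks were removed. The wider list had from 30 to 44 promoter peaks against 41. Of the 27 peaks, the RBPJ core was in 0 with 200 bp (all peaks 16.5%), in 10 with 500 bp (37%, all peaks 36.5%) and in 24 over whole peaks (88.9%, all peaks 77%), against 5 in 300 bp, and the relaxed core, also chosen after seeing the data, was in 9. The share at 200 bp lies below that of all peaks, and the cause was not tested. Over single genes, 146 of 170 alternative values stayed within 1.5 times and 24 moved. Read depth is unknown, so weak peaks and genes without one cannot be ranked by it.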

Other observations

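At many pathway genes outside the 10, the highest-scoring peak by the 20 kb rule lay away from the canonical TSS. The share over all protein-coding genes was not computed, so no trait of the pathway is read from this. In HEY2, DLL4 and HES7 that peak lay at a start site of another gene, as in PSEN2, ITCH and HDAC1 among others. HEY2, DLL4, HES7 and HES5 serve as examples and were chosen after their values were seen. HEY2, a HEY family repressor gene, had 58.6 at its promoter and 1725.75 at a peak from 30421 to 32433 bp downstream, within 1 kb of a start site of NCOA7. DLL4, a Delta ligand gene of endothelium, had 96.36 at its promoter and 1686.67 at a peak from 22276 to 25275 bp downstream, beside CHAC1. HES7, a gene of the somite clock, had 99.15 at its promoter and 1086.92 at a peak near a start site of ALOXE3. The latter peak also overlapped the 3′ end of HES7. HES5, a neural HES gene, had no promoter peak, and a peak from -18471 to -14816 bp of its TSS scored 1373.01 with no protein-coding start site of another gene within 1 kb.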
